A study of Mus musculus with 6 samples.

Results

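The 10 genes described here encode the machinery that empties, senses and refills the calcium store of the endoplasmic reticulum: the sensors Stim1 and Stim2, the plasma membrane channels Orai1, Orai2 and Orai3, the inositol trisphosphate (IP3) receptors Itpr1, Itpr2 and Itpr3, and the store pumps Atp2a2 and Atp2a3. They were chosen by name, as members of these gene families, from the 23398 genes of the deposited expression table, and all 10 were found in it. The libraries came from mouse bone marrow derived dendritic cells exposed for 12 hours to calcium hydroxide nanoparticles (3 libraries) or to vehicle (3 libraries). The labels give no strain, genotype, age, particle dose or vehicle composition, and they do not say whether the 3 libraries of a group came from separate mice or cultures, so a p-value here measures the spread between these libraries, which may be technical.

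Store-operated calcium entry starts when receptor signalling makes IP3, which opens IP3 receptors and lets calcium leave the endoplasmic reticulum. STIM proteins in the reticulum membrane sense the fall in store calcium, gather where the reticulum touches the plasma membrane and open ORAI channels there, and SERCA pumps, the products of the Atp2a genes, return calcium to the store. In dendritic cells, the antigen-presenting cells that prime T cells, STIM1 is known for shaping calcium signals near phagosomes.

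With nanoparticles Orai2 and Stim2 rose, and Atp2a3, Itpr1 and Orai3 fell. Orai2 rose 3.28-fold in mean FPKM (a read level corrected for transcript length and library scale) and Stim2 rose 1.79-fold, and both calls held in each alternative setting and with any 1 library left out. Atp2a3 had a mean 2.22-fold lower, Itpr1 1.75-fold lower and Orai3 1.52-fold lower, and each of these calls was lost in some settings. Stim1, Orai1, Itpr2, Itpr3 and Atp2a2 did not pass the threshold.

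Recovered read totals were 17305165 to 21997436 per library, and each of the 10 genes rested on at least 153 reads in each library. Nanoparticle library 1 stood apart from the others of its group: the correlation of log2(FPKM + 1) over 10682 genes, which are no replicates of each other, was 0.942 and 0.928 between it and nanoparticle libraries 2 and 3, against 0.9895 between those libraries and 0.993 to 0.994 among vehicle libraries. The change of each of the 10 genes is therefore given with and without it. The label of the cells was checked against marker genes. Of 13 dendritic cell markers 12 were tested, with 3 higher and 3 lower. Over all tested genes 17.0% were called higher and 16.2% lower, which also stands beside the macrophage marker counts below. The summed level of the 13 dendritic cell markers was 6154 to 6598 FPKM in vehicle against 3621 to 8048 FPKM with nanoparticles. Ccr7 (2.29 ± 0.469 to 112 ± 10.5 FPKM), Fscn1 (3.51 ± 1.10 to 154 ± 81.7 FPKM) and Irf8 (8.68 ± 0.189 to 21.2 ± 2.84 FPKM) were the higher ones. Cd209a (5.69 ± 0.523 to 0.0254 ± 0.0441 FPKM), Clec10a (6.92 ± 1.12 to 0.786 ± 0.267 FPKM) and Zbtb46 (3.97 ± 0.268 to 2.30 ± 0.521 FPKM) were the lower ones. Itgax averaged 449 ± 7.16 FPKM in vehicle against 340 ± 80.6 FPKM with nanoparticles (SD, n = 3 each), and Cd74 was at 4116 ± 190 and 4111 ± 1613 FPKM, whereas Flt3 was at 0.0793 FPKM or less in each library. Macrophage markers were present as well, with a summed level of 238 to 241 FPKM in vehicle against 697 to 1033 FPKM with nanoparticles over 5 genes, 3 of them higher and 1 lower past the threshold, and the part of such cells in the results was not tested. The 5 T cell markers summed to 0.260 to 0.332 FPKM in vehicle against 1.21 to 1.83 FPKM with nanoparticles: Lck (0.248 ± 0.0324 to 1.03 ± 0.350 FPKM) and Cd247 (0.0186 ± 0.00950 to 0.361 ± 0.142 FPKM) were higher without overlap, untested because they were below the filter, while the defining genes Cd3d, Cd3e and Cd3g were at 0.0999 FPKM or less in each library. Fewer cells of a type and less RNA per cell cannot be told apart in such bulk libraries.

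The sequences of the family members bear on how well their reads can be told apart, so the longest stretches that each pair of relatives has in common in GENCODE M21 transcripts are shown for the closest pair of each of 3 families. All letters below are coding sequence in both genes.

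Orai2 and Orai3: ggcttcgccatggtggccatggtggaggt
Itpr2 and Itpr3: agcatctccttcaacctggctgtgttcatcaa
Atp2a2 and Atp2a3: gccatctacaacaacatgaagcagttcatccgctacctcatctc

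The runs are 29, 32 and 44 bases long, and the longest run common to Stim1 and Stim2 was 15 bases. Of the 50-base words in the transcripts of each member, between 0% (Stim1, Orai1 and Orai3) and 3.93% (Atp2a2) occurred in another gene, on either strand. The other genes were Gm30970 and Gm43361 for Atp2a2, Itpr3os for Itpr3 (1.51%) and Gm44040 and Gm44101 for Itpr1 (1.07%), and Atp2a3 shared 0.0745% with Atp2a1. Stim2 shared 0.425% of its words with a range of unrelated genes, among them Arhgef7 and Cep78, and Orai2 0.162% with Col26a1, Fbxl18, Hip1, Srrm3 and Trim56. The antisense genes Gm44040 and Gm44101 at Itpr1, Gm2479 at Orai1 and Gm43361 at Atp2a2 were at 0.112 FPKM or less in each library. Itpr3os at Itpr3 had no single entry under that name in the deposited expression table, so no level is given for it. Since the strand of the counting is not given in the sources used here, reads of these overlaps cannot be assigned.

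Promoter windows, the 250 bases before the RefSeq start on GRCm38.p6, were at hand for 8 of the 10 genes. They are printed for the genes that rose, Orai2 and Stim2, and for the one with the largest fall, Atp2a3, with matches to the GC box GGGCGG, on either strand, and in Orai2 to the E-box CACGTG in capitals. Orai2 lies on the minus strand at chr5:136170657-136170906, Stim2 on the plus strand at chr5:53998273-53998522 and Atp2a3 on the plus strand at chr11:72960919-72961168.

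Orai2: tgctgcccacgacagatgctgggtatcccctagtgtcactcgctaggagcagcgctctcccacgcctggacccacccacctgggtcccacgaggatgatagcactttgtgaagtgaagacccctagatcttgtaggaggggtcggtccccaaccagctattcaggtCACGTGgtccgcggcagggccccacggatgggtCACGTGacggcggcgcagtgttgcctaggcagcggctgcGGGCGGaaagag
Stim2: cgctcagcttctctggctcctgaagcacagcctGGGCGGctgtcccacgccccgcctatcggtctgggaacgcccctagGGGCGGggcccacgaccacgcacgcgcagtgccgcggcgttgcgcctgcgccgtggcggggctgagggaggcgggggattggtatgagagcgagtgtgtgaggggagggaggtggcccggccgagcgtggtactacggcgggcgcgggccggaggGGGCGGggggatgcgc
Atp2a3: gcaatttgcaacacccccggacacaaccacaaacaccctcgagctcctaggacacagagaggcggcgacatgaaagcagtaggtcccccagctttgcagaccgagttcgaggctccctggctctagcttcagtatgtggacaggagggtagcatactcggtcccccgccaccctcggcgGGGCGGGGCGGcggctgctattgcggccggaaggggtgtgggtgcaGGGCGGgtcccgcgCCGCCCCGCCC

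A GC box was found in all 8 windows, against 32.7% of the 32851 windows of all genes, with 1 match for Orai2, 3 for Stim2 and 5 for Atp2a3, some of them overlapping. The CG dinucleotide occurred 7 times (Orai3) to 31 times (Stim1) in these windows, against a median of 6 over all windows. The same search on both strands for the interferon-stimulated response element GAAANNGAAA (2.98% of all windows), the AP-1 site TGANTCA (6.75%), the cyclic AMP response element TGACGTCA (1.55%) and the TATA box TATAAA (12.4%) found no match in any of the 8 windows. The kappaB consensus (3.9% of all windows) had 1 match, in Itpr3. The E-box CACGTG, a motif added after the Orai2 window had been read, had 2 matches in Orai2 and 1 in Itpr3, against at least 1 in 6.02% of all windows. Rising and falling genes were thus not separated by the GC box.

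Levels per length can be compared between genes in FPKM. In vehicle cells the order ran from Atp2a2 at 41.5 ± 0.565 FPKM and Orai1 at 31.4 ± 0.213 FPKM through Orai3 at 14.8 ± 1.31 FPKM and Atp2a3 at 11.01 ± 0.645 FPKM to Stim2 at 5.06 ± 0.233 FPKM and Stim1 at 4.72 ± 0.410 FPKM, followed by Orai2 at 3.12 ± 0.357 FPKM, Itpr2 at 2.74 ± 0.188 FPKM, Itpr3 at 2.20 ± 0.161 FPKM and Itpr1 at 1.97 ± 0.135 FPKM (SD, n = 3 each). The libraries of neighbours overlapped for Stim2 and Stim1, for Orai2 and Itpr2, and for Itpr3 and Itpr1. With nanoparticles Atp2a2 and Orai1 stayed at the top in each library, Orai2, Orai3 and Stim2 overlapped in a middle band of 7.21 to 11.7 FPKM, and Atp2a3 lay between 2.59 and 6.77 FPKM. In level Orai2 thus moved from among the IP3 receptors to the range of Orai3.

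**Figure D1:**
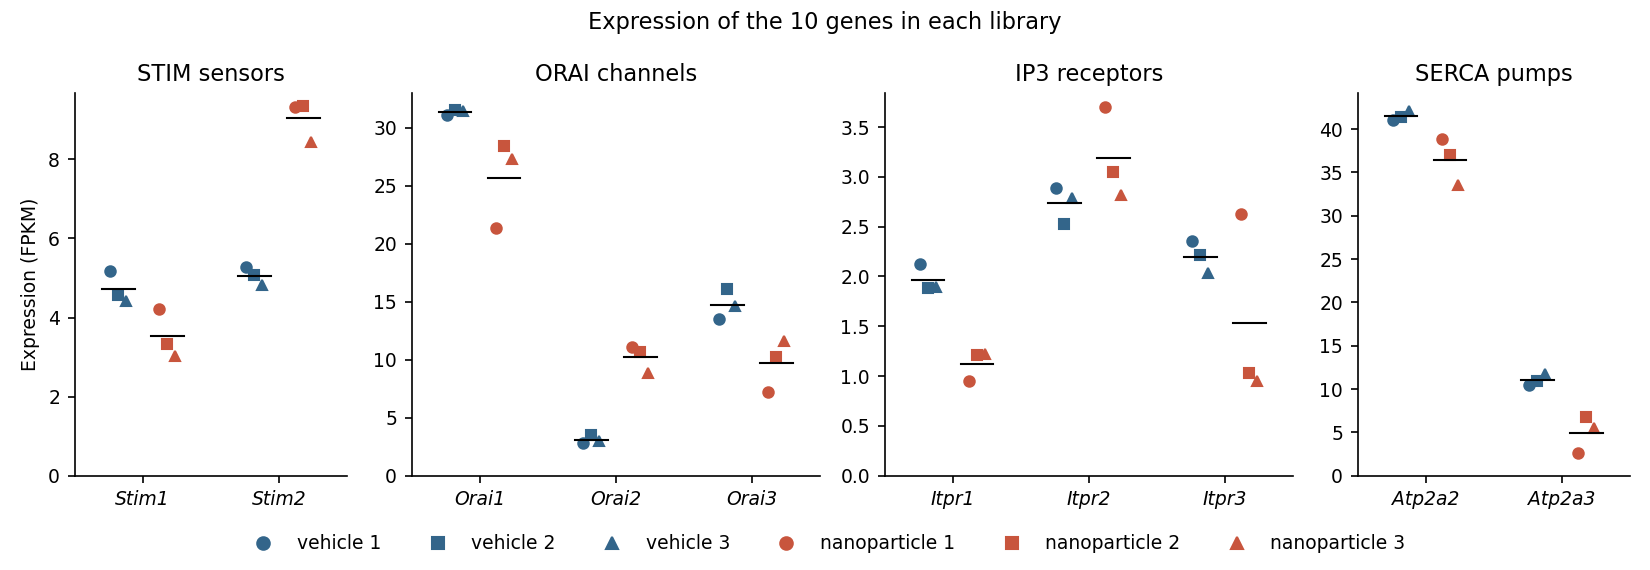
Expression in FPKM (vertical axes, linear and from 0) of the 10 genes in 4 panels by family; each point is 1 library, blue for vehicle and red for nanoparticle, the symbol gives the library number and the black line is the group mean. Orai2 and Stim2 lie higher in the 3 nanoparticle libraries than in any vehicle library, and nanoparticle library 1 (red circles) lies apart from libraries 2 and 3 for Orai1, Itpr3 and Atp2a3.

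The comparison of nanoparticle with vehicle libraries asks which transcripts differ after exposure to the particles. limma's moderated test was run on log2(FPKM + 1) over 10682 genes that reached 1 FPKM in 3 or more libraries, with a threshold of 0.05 on the p adjusted by the Benjamini-Hochberg method. All 10 genes passed that filter, and Itpr1 and Itpr3 were below 1 FPKM in 1 nanoparticle library each. Of the 10 genes, 5 passed the threshold, against 33.2% of all tested genes. The 2 that rose stand beside 17.0% of all genes called higher, and the 3 that fell beside 16.2% called lower. The median log2 change of the 10 genes was -0.32 and that of all tested genes -0.0010. The groups did not overlap in 8 of the 10 genes, 2 higher and 6 lower, against 52.1% of all tested genes, 25.9% higher and 26.2% lower. Over all genes 1817 were called higher and 1733 lower. That balance rests on the scaling between libraries, since 1109 were higher and 3610 lower with libraries scaled by total reads, where the median log2 change of all genes was -0.28, and 1318 higher and 2720 lower with upper quartile scaling, where it was -0.17.

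**Figure D2:**
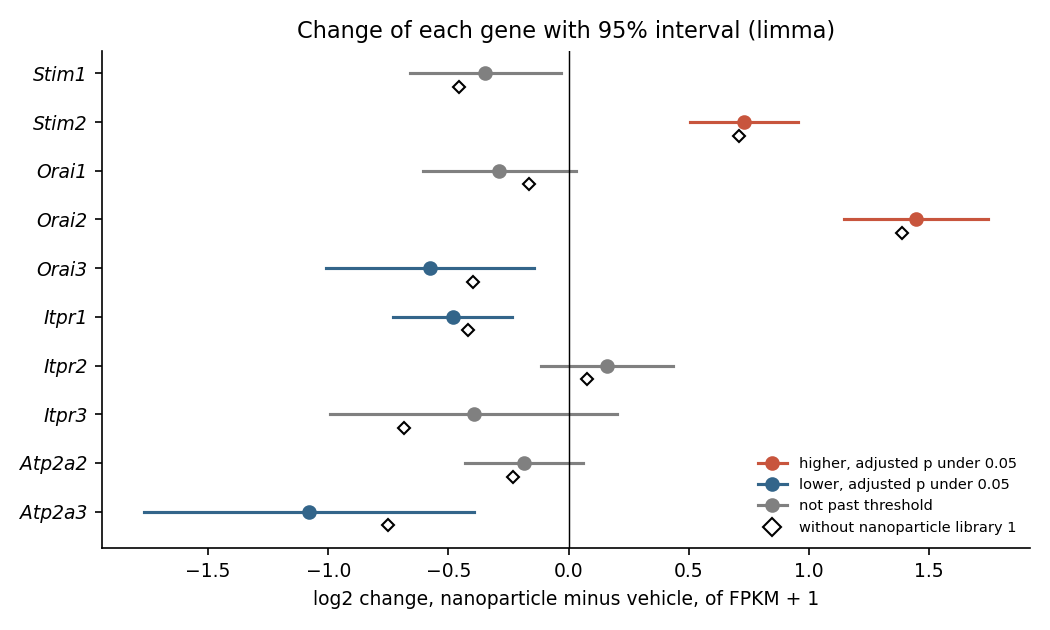
Log2 change of FPKM + 1 (horizontal axis, nanoparticle minus vehicle) for each of the 10 genes (vertical axis); circles with bars are the estimates from all 6 libraries with 95% intervals, unadjusted, colored by whether the adjusted p was under 0.05, and open diamonds are the estimates without nanoparticle library 1. The intervals of Orai2 (1.15 to 1.74) and Stim2 (0.51 to 0.95) lie farthest above 0, and the diamond of Atp2a3 lies at -0.75 beside an estimate of -1.08.

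Among the sensors, Stim2, which is known to respond to small falls in store calcium and to hold resting calcium, was the one that rose. Stim2 (ENSMUSG00000039156) is protein coding and spans chr5:53998499-54121057 on the plus strand in GENCODE M21 on GRCm38. Its level was 5.28, 5.07 and 4.81 FPKM in vehicle libraries 1 to 3 and 9.33, 9.35 and 8.44 FPKM in nanoparticle libraries 1 to 3. Each nanoparticle library held more than any vehicle library, with no overlap, and nanoparticle library 1 lay between the other nanoparticle libraries. The log2 change was 0.73 (SE 0.0926, limma adjusted p = 0.0019), and 0.71 without nanoparticle library 1 (limma adjusted p = 3.0e-04).

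Stim1 (ENSMUSG00000030987) encodes the sensor that responds to strong store depletion and spans chr7:102267806-102437319 on the plus strand. It was at 5.19, 4.57 and 4.41 FPKM in vehicle and 4.22, 3.32 and 3.02 FPKM in nanoparticle libraries 1 to 3. The nanoparticle libraries lay below the vehicle libraries without overlap, but by a narrow margin for nanoparticle library 1. The log2 change of -0.35 (95% interval -0.66 to -0.03, limma adjusted p = 0.0871) did not pass the threshold with all libraries. Without nanoparticle library 1 it was -0.45 and passed (limma adjusted p = 0.0043).

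The balance of the sensors was therefore different between the groups. Stim2 made up 50.4%, 52.6% and 52.2% of the summed Stim FPKM with vehicle and 68.8%, 73.8% and 73.6% with nanoparticles. A share within a family does not depend on the scaling between libraries, and here the groups did not overlap. On the deposited scaling the summed Stim level went from 9.78 ± 0.631 to 12.6 ± 1.05 FPKM (SD, n = 3 each), without overlap. A sum, unlike a share, depends on that scaling, here and for the other families, and sums were not compared on other scalings. With scaling by total reads the log2 change was 0.43 for Stim2 and -0.62 for Stim1.

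Orai2 had the largest change of the 10 genes, larger in absolute size than 92.9% of all tested genes. Its product is a channel subunit that can join ORAI1 in mixed channels and is known to lower the current these carry in other immune cells. Orai2 (ENSMUSG00000039747) spans chr5:136147459-136170713 on the minus strand. It was at 2.84, 3.52 and 2.99 FPKM in vehicle and 11.1, 10.7 and 8.86 FPKM in nanoparticle libraries 1 to 3, from 344, 424 and 379 recovered reads and 1102, 1077 and 1038 recovered reads. The groups were far apart, and the nanoparticle libraries were all above the vehicle libraries. The log2 change was 1.45 (SE 0.123, limma adjusted p = 4.5e-04), and 1.39 without nanoparticle library 1 (limma adjusted p = 8.3e-05).

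Orai1 (ENSMUSG00000049686), the principal subunit of the store-operated channel in immune cells, spans chr5:123015074-123030456 on the plus strand. It was at 31.1, 31.5 and 31.5 FPKM in vehicle and 21.3, 28.5 and 27.3 FPKM in nanoparticle libraries 1 to 3. All nanoparticle libraries were below all vehicle libraries, and nanoparticle library 1 was the lowest. The log2 change of -0.29 (95% interval -0.61 to 0.03) did not pass (limma adjusted p = 0.1431). Without nanoparticle library 1 it was smaller, -0.17, and passed (limma adjusted p = 0.0280).

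Orai3 (ENSMUSG00000043964), the channel subunit found in mammals but not in other vertebrates, spans chr7:127769815-127775150 on the plus strand. It was at 13.5, 16.1 and 14.6 FPKM in vehicle and 7.21, 10.2 and 11.7 FPKM in nanoparticle libraries 1 to 3. The groups did not overlap, and nanoparticle library 1 was again the lowest. The log2 change was -0.58 (SE 0.179, limma adjusted p = 0.0498), so the call lies at the threshold. It was lost with a pseudocount of 0.1 (limma adjusted p = 0.0523), with no filter (0.0966), with no trend (0.0508), with the replicate block (0.0512) and in 4 of the 6 fits that left out 1 library, and without nanoparticle library 1 the change was -0.40 (limma adjusted p = 0.0092).

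The make-up of the channel family moved toward Orai2. Orai2 held 5.98%, 6.88% and 6.09% of the summed Orai FPKM of vehicle libraries 1 to 3, and 28.0%, 21.7% and 18.5% of that of nanoparticle libraries 1 to 3. The share of Orai1 was 63.8% ± 2.00 in vehicle and 56.2% ± 2.04 with nanoparticles, and that of Orai3 29.9% ± 1.53 and 21.1% ± 3.12 (SD, n = 3 each), with no overlap of groups for any of the 3 genes. Orai1 exceeded Orai2 10.2-fold ± 1.05 in vehicle and 2.55-fold ± 0.585 with nanoparticles (SD, n = 3 each). On the deposited scaling the sum of the family did not separate, at 49.2 ± 1.85 against 45.6 ± 5.23 FPKM (SD, n = 3 each), with overlapping libraries. With scaling by total reads Orai1 (log2 change -0.62) and Orai3 (-0.89) were called lower and Orai2 (1.16) higher. Whether the sum was unchanged on that scaling was not tested.

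**Figure D3:**
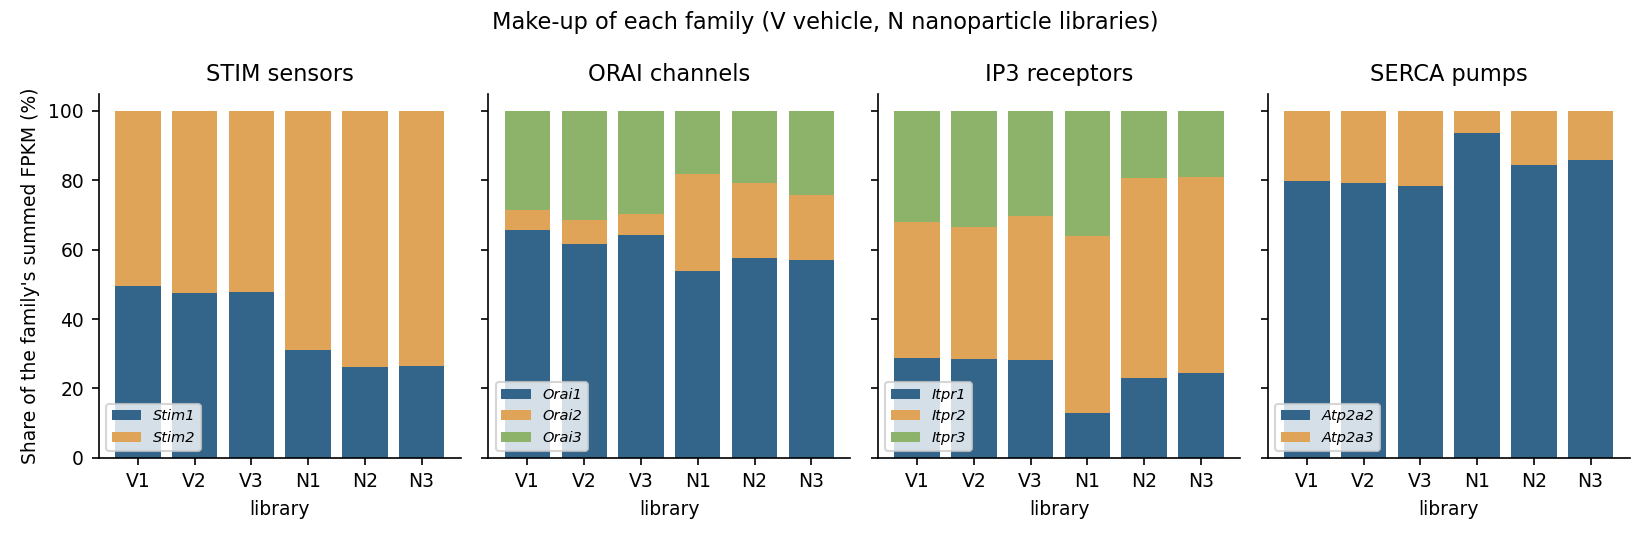
Share of each gene in the summed FPKM of its family (vertical axis, percent, stacked to 100) in the 6 libraries (horizontal axis: V1 to V3 vehicle, N1 to N3 nanoparticle). The orange Orai2 segment grows from 6.32% to 22.7% of the channel family on average, and the orange Stim2 segment from 51.7% to 72.1% of the sensors.

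The IP3 receptors, the channels that release store calcium, were the lowest expressed of the families, and Itpr1 was the one called. Itpr1 (ENSMUSG00000030102) spans chr6:108213096-108551109 on the plus strand. It was at 2.12, 1.88 and 1.90 FPKM in vehicle and 0.946, 1.21 and 1.22 FPKM in nanoparticle libraries 1 to 3, without overlap. The log2 change was -0.48 (SE 0.103, limma adjusted p = 0.0134), a scale on which the pseudocount of 1 shrinks so low a gene, and it was -0.76 with a pseudocount of 0.1. The call was lost with no filter (limma adjusted p = 0.0516), with the replicate block (0.0578) and without any 1 of the vehicle libraries (0.0538 to 0.0675). Without nanoparticle library 1 the change was -0.42 (limma adjusted p = 0.0056).

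Itpr2 (ENSMUSG00000030287), the receptor with the highest affinity for IP3, spans chr6:146108299-146502223 on the minus strand. It was at 2.89, 2.53 and 2.79 FPKM in vehicle and 3.70, 3.05 and 2.82 FPKM in nanoparticle libraries 1 to 3, and the groups overlapped. Its log2 change of 0.16 (95% interval -0.12 to 0.44, limma adjusted p = 0.3303) did not pass in any setting, and its sign was negative (-0.10) with scaling by total reads. Without nanoparticle library 1 it was 0.07 (limma adjusted p = 0.4648).

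Itpr3 (ENSMUSG00000042644), the receptor with the lowest affinity for IP3, spans chr17:27057304-27122223 on the plus strand. It was at 2.36, 2.21 and 2.04 FPKM in vehicle and 2.63, 1.03 and 0.952 FPKM in nanoparticle libraries 1 to 3. Nanoparticle library 1 was the highest of the 6 libraries, while libraries 2 and 3 were the lowest. The log2 change of -0.40 (SE 0.247, 95% interval -0.99 to 0.20, limma adjusted p = 0.2708) did not pass, and without nanoparticle library 1 it was -0.68 (SE 0.0900, limma adjusted p = 7.5e-04). The result for Itpr3 therefore turns on that library.

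Within the receptors, Itpr2 made up 39.2%, 38.2% and 41.5% of the summed Itpr FPKM in vehicle and 50.8%, 57.6% and 56.5% with nanoparticles, with no overlap. The share of Itpr1 was 28.5% ± 0.307 in vehicle and 20.1% ± 6.20 with nanoparticles (SD, n = 3 each), with 13.01% in nanoparticle library 1. On the deposited scaling the summed level of the 3 receptors overlapped between groups, at 6.91 ± 0.407 and 5.85 ± 1.24 FPKM (SD, n = 3 each).

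Of the pumps, Atp2a3 fell. It encodes SERCA3, a pump of low calcium affinity known from blood and endothelial cells. Atp2a3 (ENSMUSG00000020788) spans chr11:72961169-72993044 on the plus strand. It was at 10.4, 10.9 and 11.7 FPKM in vehicle and 2.59, 6.77 and 5.55 FPKM in nanoparticle libraries 1 to 3. All nanoparticle libraries lay below all vehicle libraries, and nanoparticle library 1 lay farthest below. The log2 change was -1.08 (SE 0.284, limma adjusted p = 0.0288), and -0.75 without nanoparticle library 1 (SE 0.0942, limma adjusted p = 6.1e-04). The call was lost with no filter (limma adjusted p = 0.0681) and without any 1 of the vehicle libraries (0.0827 to 0.0985).

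Other blood cell types that a marrow culture can hold were followed by their markers. Megakaryocyte and platelet markers (3 genes in the table) summed to 218 to 246 FPKM in vehicle against 143 to 696 FPKM with nanoparticles, most of it from Pf4, and Itga2b was at 0.481 FPKM or less. Pf4 was at 191 to 214 FPKM in vehicle and at 140, 547 and 641 FPKM in nanoparticle libraries 1 to 3. Ppbp was at 27.3 to 34.8 FPKM in vehicle and at 2.26, 61.3 and 55.2 FPKM in nanoparticle libraries 1 to 3. Both thus lay below vehicle in nanoparticle library 1 and above it in libraries 2 and 3, and neither passed the threshold. Neutrophil markers summed to 265 to 298 FPKM in vehicle against 180 to 253 FPKM with nanoparticles. Of these 9 genes 3 were tested: Mmp8, which carried most of the sum, fell from 245 ± 14.5 to 130 ± 2.28 FPKM, S100a8 rose from 34.9 ± 1.32 to 83.1 ± 30.0 FPKM, and S100a9 was at 1.19 ± 0.397 and 7.93 ± 6.73 FPKM without passing (SD, n = 3 each). Of those below the filter and untested, Elane, Mpo and Ly6g were at 0.307 FPKM or less in each library, and Ltf at 0.315 FPKM or less. Camp was higher with nanoparticles without overlap, at 0.0853 ± 0.0962 and 1.35 ± 0.965 FPKM. Ngp was at 0.534 ± 0.335 and 2.53 ± 2.21 FPKM, with overlap of groups (SD, n = 3 each). Red cell precursor markers summed to 0.711 FPKM or less in each library. The part of these cells in the change of Atp2a3 was not tested.

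Atp2a2 (ENSMUSG00000029467), which encodes the widely expressed SERCA2, spans chr5:122453513-122502225 on the minus strand. It was at 41.02, 41.4 and 42.1 FPKM in vehicle and 38.8, 37.04 and 33.5 FPKM in nanoparticle libraries 1 to 3. The groups did not overlap, with the nanoparticle libraries lower. The log2 change of -0.19 (95% interval -0.43 to 0.06, limma adjusted p = 0.2126) did not pass, and without nanoparticle library 1 it was -0.23 and passed (limma adjusted p = 0.0147). Atp2a3 made up 20.3%, 20.8% and 21.7% of the summed pump FPKM in vehicle and 6.25%, 15.5% and 14.2% with nanoparticles, without overlap. On the deposited scaling the summed pump level was 52.5 ± 1.21 and 41.4 ± 2.38 FPKM (SD, n = 3 each), also without overlap.

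Leaving out nanoparticle library 1 called 9 of the 10 genes, 2 higher and 7 lower, with Itpr2 as the exception. In that fit 64.8% of all tested genes were called, 34.3% higher and 30.5% lower. By limma-voom on all libraries 3 of the 10 genes were lower, against 1780 of 10679 genes tested. Leaving out any 1 vehicle library gave 2 higher and 0 lower by the same limma test as in the reported fit. Of all tested genes, the fits without vehicle library 1, 2 or 3 called 10.8%, 10.6% and 10.4% higher and 10.1%, 9.9% and 9.61% lower, so a count of 0 of 10 lower is near that background. With no filter 0 of the 10 were lower by limma, against 7.46% of all 23398 genes, and with the replicate block 1 was lower, against 12.5%. With scaling by total reads 6 of the 10 genes were called lower, against 33.8% of all genes, and with upper quartile scaling also 6, against 25.5%. In both of these scalings Stim1, Orai1 and Atp2a2 joined the genes called lower, while Orai2 (log2 change 1.16 and 1.27) and Stim2 (0.43 and 0.54) were still called higher.

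**Figure D4:**
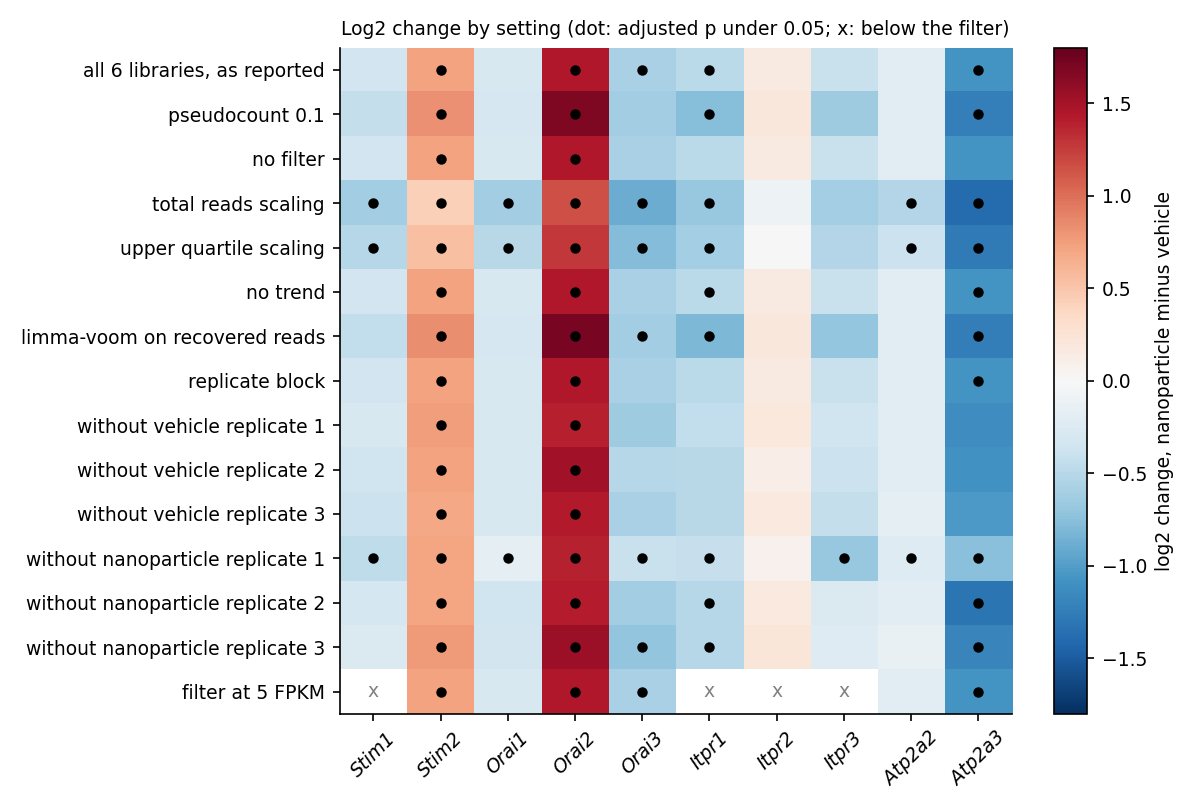
Log2 change of each of the 10 genes (columns) in the reported fit and in each alternative (rows), on a color scale from -1.8 (blue) to 1.8 (red); a black dot marks an adjusted p under 0.05 and x a gene below the filter. The columns of Stim2 and Orai2 are red with a dot in each row, and the dots of Orai3, Itpr1 and Atp2a3 are missing in the rows that leave out a vehicle library.

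The genes closest to each called member in profile were found as those with the smallest root mean square difference in log2(FPKM + 1), centered on the gene's mean over the 6 libraries, among 6665 genes with a mean of at least 5 FPKM in the higher group. For Stim2 they were Lcp2 (0.0392), an adaptor protein of immune receptor signalling that went from 22.4 ± 0.670 to 36.1 ± 1.45 FPKM, then Gpbp1 (0.0416) and the autophagy gene Atg10 (0.0477). For Orai2 they included Gm10134 (0.0750) and Irf9 (0.0886), a component of the interferon-activated transcription complex that went from 6.34 ± 0.0440 to 20.6 ± 1.87 FPKM (SD, n = 3 per group throughout). For Atp2a3 they were the potassium channel gene Kcnk6 (0.0627), from 19.5 ± 0.761 to 8.56 ± 3.14 FPKM, then Gamt (0.0850) and Zfp385a (0.0850). Orai3 was closest to Hmgb1 (0.0608), Ppan (0.0649) and the cyclin gene Ccnd3 (0.0659), and Itpr1 to the lysosomal cofactor gene Gm2a (0.0383), Btbd1 (0.0389) and Abhd4 (0.0422). These distances describe the 6 libraries and carry no test.

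Genes that act around the store were read from 6 lists with 74 genes in the table, of which 51 passed the filter. Past the threshold, 6 were higher and 14 lower, which is 39.2% of those tested beside 33.2% of all genes, and the median log2 change was -0.19. Without nanoparticle library 1 the counts were 15 higher and 23 lower, and without any 1 vehicle library 4 higher and 7 lower. The same fits called 34.3% of all tested genes higher and 30.5% lower, and 10.4% to 10.8% higher and 9.61% to 10.1% lower. The genes named below from these lists as higher or lower also passed, in the same direction, without nanoparticle library 1.

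Among enzymes that make or remove IP3, 3 of 7 tested genes passed, all lower, beside 16.2% of all tested genes called lower. The list median was -0.31, and no list was tested as a set. Plcb2, the phospholipase C that couples chemoattractant receptors of blood cells to IP3, fell from 29.6 ± 1.61 to 9.09 ± 1.43 FPKM (log2 change -1.61, SD over n = 3 each, limma adjusted p = 3.9e-04). Plcg2, the phospholipase downstream of Fc receptors and C-type lectins, fell from 30.09 ± 0.921 to 20.2 ± 1.35 FPKM (log2 change -0.55), and Plcg1 fell from 2.45 ± 0.229 to 1.72 ± 0.0811 FPKM (-0.34). Genes whose products bind or modify IP3 receptors passed in 5 of 11 tested, all lower, beside the same 16.2%. Their list median was -0.44. Itpripl1, named for its likeness to an IP3 receptor interacting protein, fell from 12.1 ± 0.247 to 3.04 ± 0.846 FPKM (log2 change -1.73, limma adjusted p = 7.4e-04), and Lrmp, a reticulum membrane protein, from 33.5 ± 1.34 to 14.7 ± 6.59 FPKM (-1.24). Lrmp was at 7.18 FPKM in nanoparticle library 1 against 17.8 and 19.2 FPKM in libraries 2 and 3, and its log2 change without library 1 was -0.82.

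Partners of STIM and ORAI went both ways, with 2 higher and 3 lower of 9 tested. Over all tested genes 17.0% were called higher and 16.2% lower. Cav1, the coat protein of caveolae, rose from 26.03 ± 2.29 to 168 ± 12.7 FPKM (log2 change 2.64, SD over n = 3 each, limma adjusted p = 6.7e-05), and Tmem110, which supports STIM at the junctions with the plasma membrane, from 1.93 ± 0.296 to 3.58 ± 0.824 FPKM (0.63). The calcium-binding regulators of the store-operated channel Cracr2b (5.94 ± 0.149 to 1.83 ± 1.18 FPKM, log2 change -1.40) and Cracr2a (1.27 ± 0.0455 to 0.714 ± 0.09998 FPKM, -0.41) fell, as did Esyt2, a tether between the reticulum and the plasma membrane (12.7 ± 0.515 to 6.55 ± 0.878 FPKM, -0.86). Cracr2b was at 0.487 FPKM in nanoparticle library 1 against 2.32 and 2.68 FPKM in libraries 2 and 3, and its log2 change without library 1 was -0.99. In the list of other pumps and pump regulators 1 of 4 tested genes passed, Tmem64, a SERCA2-binding protein, which fell from 7.28 ± 0.895 to 2.08 ± 0.472 FPKM (log2 change -1.43).

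Other release and leak channels and their regulators gave 3 higher and 2 lower of 9 tested, beside 17.0% and 16.2% of all tested genes. Cd38, whose product makes the calcium-mobilizing messenger cyclic ADP-ribose, rose from 7.49 ± 0.546 to 65.4 ± 4.35 FPKM (log2 change 2.97, SD over n = 3 each), Tmbim6, a reticulum membrane protein linked to calcium leak, from 118 ± 0.609 to 198 ± 20.2 FPKM (0.74), and the lysosomal calcium channel Mcoln1 from 6.45 ± 0.294 to 8.27 ± 0.461 FPKM (0.32). Tpcn1, a channel of endosomes and lysosomes, fell from 6.47 ± 0.875 to 1.42 ± 0.426 FPKM (-1.63), and Asph, whose products include a reticulum calcium channel partner, from 4.61 ± 0.333 to 2.39 ± 1.16 FPKM (-0.78). The ryanodine receptor genes Ryr1 and Ryr2, which encode the other main kind of release channel, did not pass the filter, with Ryr1 at 0.276 FPKM or less in each library. Store calcium-binding proteins passed in 1 of 11 tested, Rcn1, which rose from 2.34 ± 0.246 to 4.64 ± 0.635 FPKM (log2 change 0.75), and calreticulin, Calr, the main store buffer, was at 364 ± 6.31 and 318 ± 88.6 FPKM (log2 change -0.24, limma adjusted p = 0.4861).

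**Figure D5:**
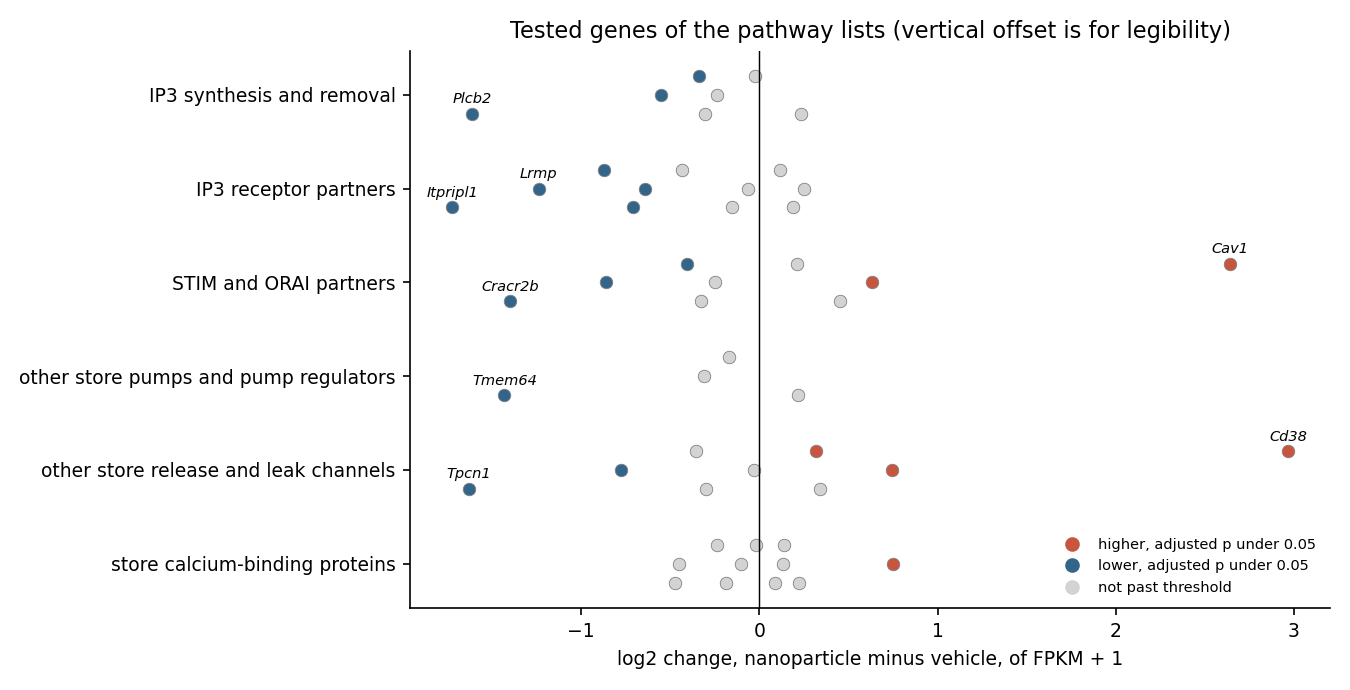
Log2 change of FPKM + 1 (horizontal axis, nanoparticle minus vehicle) of the 51 tested genes of the 6 lists (vertical axis, offset within a list for legibility), colored by whether the limma adjusted p was under 0.05; genes beyond 1 in absolute log2 change are named. Points of the lists on IP3 synthesis and IP3 receptor partners that passed lie to the left of 0, whereas Cd38 (2.97) and Cav1 (2.64) lie farthest to the right.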

How the data were processed

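RNA was sequenced from 3 vehicle and 3 nanoparticle libraries, grouped and numbered by their titles. Each was made from 1 µg of total RNA, per the labels' protocols. CASAVA, STAR 2.5, HTSeq, edgeR 3.16.5 and DESeq2 are named with the builds mm10 and hg19, per the submitters' processing notes, without roles or order. The authors deposited 2 tables, one of them named for read counts, whose 140388 values are identical. The deposited values were treated as FPKM, a unit inferred here: multiplied by merged exon length (GENCODE M21) and 1 scale per library, 95.8% to 96.1% of the values above 0 were whole reads within 0.01. For 289 of 290 abundant genes off the annotated length another length gave whole reads. The library scales matched median-of-ratios size factors within 0.0144%, a scaling that rests on most genes not changing. Reads shared between genes were handled in a way not given in the sources used here.

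The 10682 genes that reached 1 FPKM in 3 or more libraries were fitted with limma 3.58.1 in R 4.3.3 on log2(FPKM + 1) across all genes, with group as the single term, a mean-variance trend and Benjamini-Hochberg adjustment. This scale understates changes of low genes. The fit was tested on simulated data. The main fit used the deposited values, which are not counts, and limma-voom on recovered reads was an alternative. edgeR and DESeq2 were not run here. Shares, lists and figures used Python 3.11.15 with pandas 2.3.3, scipy 1.17.1 and matplotlib 3.10.9. Sequences came from GENCODE M21 transcripts and RefSeq promoter windows on GRCm38.p6.

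All 10 members are named, as are up to 3 genes per direction and list that passed the threshold without overlap of groups, by absolute log2 change, and the 3 nearest profiles of each called member. Some genes that this rule selects are not reported here. Levels named where no such rule applies are checks of cell type or store channels and buffers chosen after their values were seen. Members and lists were chosen with earlier results of these data known. Alternatives were another pseudocount, filters, scalings, no trend, limma-voom on recovered reads, a replicate block and leaving out each library.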

Additional observations from a re-analysis of the deposited data

How the results depend on the processing

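The calls of Orai2 and Stim2, and the count of 2 members called higher, were the same in each alternative run. The count of 3 members called lower was 0 with no filter, where 7.46% of all genes were lower. It was 3 by limma-voom with the filter, against 1780 of 10679 genes tested. With scaling by total reads it was 6, with upper quartile scaling 6 and with the replicate block 1, against 33.8%, 25.5% and 12.5% of all genes. It ran from 0 to 7 over the fits that left out 1 library. The sign of Itpr2 was reversed with scaling by total reads (-0.10), a scaling that lowered the median of all genes as well, so that Itpr2 lay above it. Over all genes, 1109 were higher and 3610 lower with total reads, 2720 were lower with upper quartile scaling, and 975 were lower with a filter at 5 FPKM, which tested fewer genes. Leaving out 1 library gave 1114 to 3660 higher and 1027 to 3263 lower. For the pathway lists, 7 of 74 genes were lower with no filter, against 7.46% of all genes. Of the 51 genes above the filter, 29 were lower with total reads, against 33.8% of all genes, and 24 with upper quartile scaling, against 25.5%. Leaving out 1 library gave 4 to 15 of these 51 higher and 7 to 23 lower. The cause of these differences was not tested beyond what each alternative does by construction. The replicate block gave 1451 genes higher and 1334 lower over all genes. Correlations of deviations across genes between same-numbered libraries were small, at 0.0654, 0.113 and -0.0577. Vehicle libraries 1 and 2 correlated best with their own number and vehicle library 3 did not. With 3 libraries per group such correlations cannot decide whether the numbers mark pairs. With a filter at 5 FPKM, Stim1, Itpr1, Itpr2 and Itpr3 could not be tested. Depth limits Itpr3 most, at 153 to 423 recovered reads per library.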
